A study of Mus musculus with 9 samples.

Results

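The hypoxia-inducible factors (HIFs), their prolyl hydroxylases and a set of their target genes were followed in mouse heart after myocardial ischemia/reperfusion (I/R). The 10 genes were chosen by symbol, and all 10 had a row among the 54532 gene identifiers of the count table. They were the alpha subunits Hif1a and Epas1, the hydroxylases Egln1, Egln2 and Egln3, and the targets Adm, Ndrg1, Bnip3, Ankrd37 and Ddit4. All were above the filter on low counts in every comparison. RNA-seq read counts came from the heart tissue of 3 sham, 3 MIRI and 3 GXNI mice, 1 library per heart. All mice were wild-type male C57BL/6J mice of 8 to 10 weeks. In MIRI mice the left anterior descending coronary artery was tied for 30 min and reperfused for 24 h, with saline given into the tail vein. GXNI mice had the same surgery and received Guanxinning injection at 9 mL/kg, and sham mice had the thread passed but not tied, and were given saline. The hearts of different mice are the replicates, and no gene was altered in any group.

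HIFs are dimers of an oxygen-regulated alpha subunit and the stable subunit Arnt. In the presence of oxygen the prolyl hydroxylases, encoded by the Egln genes, mark the alpha subunits for binding by Vhl and for breakdown. When oxygen falls the alpha subunits persist, bind hypoxia response elements (HREs) in DNA and raise genes of glucose uptake, glycolysis, vessel growth and mitophagy. Several of the hydroxylases are HIF targets themselves. Control of the alpha subunits is largely at the level of protein, which the mRNA counts here do not measure.

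The libraries held between 17119454 and 22811295 counts. The libraries labelled MIRI 2 and GXNI 3 stood apart from their labels. Over 15207 genes, the first principal component, with 64.7% of the variance, placed the sham hearts between -59.8 and -52.2. MIRI 2 lay at -44.5, near sham and GXNI 1 (-43.5), while MIRI 1 and MIRI 3 lay at 61.5 and 83.3. GXNI 3 lay at 94.4 beside these, and GXNI 2 at 18.8. By Spearman's rho, none of the 6 I/R libraries was nearest to one of its own group, with MIRI 2 nearest to GXNI 1, GXNI 1 to sham 1, GXNI 2 to MIRI 1, MIRI 1 and MIRI 3 to GXNI 3, and GXNI 3 to MIRI 3. The fold changes published with the study are nearest to those of a grouping in which these libraries change places, a grouping not used here. Groups follow the deposited labels, and values without these libraries are given beside the main ones. Because they were picked by their own expression, p-values without them are too small and stand as a description. The labels name cardiomyocytes, but every marker of endothelial cells, fibroblasts, neutrophils and macrophages on the list was counted in every library. As CPM (counts scaled to the library total with TMM factors), the summed level of 7 cardiomyocyte markers was 37115 to 39908 CPM in sham, 25013 to 40840 in MIRI and 26237 to 33129 in GXNI hearts. The 6 neutrophil markers summed to 24.5 to 47.3 CPM in sham hearts. They reached 594 CPM in MIRI 1, 477 in MIRI 3 and 537 in GXNI 3, against 22.7 in MIRI 2, 39.9 in GXNI 1 and 174 in GXNI 2. Each of the 6 neutrophil markers was higher in MIRI 1, MIRI 3 and GXNI 3 than in the other libraries. In bulk tissue, fewer cells of a type and less RNA per cell cannot be told apart.

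The promoters of 5 of the genes are printed to show the HRE cores beside their measured levels: 3 of genes that were higher in MIRI than in sham hearts without MIRI 2, Egln1, which was lower, and Bnip3, which was not called. Windows run from 250 bases before to 50 bases after the RefSeq start (GRCm38.p6), 5′ to 3′ on the strand of the gene. Capitals mark the core ACGTG or GCGTG on either strand, so that CACGT and CACGC are cores of the opposite strand.
Hif1a, chr12:73907617-73907916, + strand: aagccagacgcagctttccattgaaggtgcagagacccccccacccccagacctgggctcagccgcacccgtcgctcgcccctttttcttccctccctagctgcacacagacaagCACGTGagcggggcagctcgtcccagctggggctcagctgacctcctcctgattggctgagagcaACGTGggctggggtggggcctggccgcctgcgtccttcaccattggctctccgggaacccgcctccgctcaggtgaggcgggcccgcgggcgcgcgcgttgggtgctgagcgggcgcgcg
Egln3, chr12:54203825-54204124, - strand: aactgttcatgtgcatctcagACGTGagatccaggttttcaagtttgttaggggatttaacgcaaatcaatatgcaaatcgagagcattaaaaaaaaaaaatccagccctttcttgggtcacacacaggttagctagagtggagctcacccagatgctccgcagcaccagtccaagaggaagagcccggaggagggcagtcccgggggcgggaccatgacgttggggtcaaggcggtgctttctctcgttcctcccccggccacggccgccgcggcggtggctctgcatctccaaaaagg
Adm, chr7:110627407-110627706, + strand: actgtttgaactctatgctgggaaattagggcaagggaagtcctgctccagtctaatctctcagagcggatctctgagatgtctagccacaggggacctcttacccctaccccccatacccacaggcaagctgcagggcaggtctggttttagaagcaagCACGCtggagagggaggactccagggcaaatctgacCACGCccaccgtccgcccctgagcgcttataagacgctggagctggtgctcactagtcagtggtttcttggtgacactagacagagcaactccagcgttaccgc
Egln1, chr8:124949205-124949504, - strand: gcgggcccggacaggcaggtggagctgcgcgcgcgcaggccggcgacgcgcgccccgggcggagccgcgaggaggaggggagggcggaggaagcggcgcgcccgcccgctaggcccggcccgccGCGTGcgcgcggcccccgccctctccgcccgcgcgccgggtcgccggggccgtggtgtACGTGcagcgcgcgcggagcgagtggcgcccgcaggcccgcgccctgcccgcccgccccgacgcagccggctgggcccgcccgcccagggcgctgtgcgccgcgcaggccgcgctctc
Bnip3, chr7:138909457-138909756, - strand: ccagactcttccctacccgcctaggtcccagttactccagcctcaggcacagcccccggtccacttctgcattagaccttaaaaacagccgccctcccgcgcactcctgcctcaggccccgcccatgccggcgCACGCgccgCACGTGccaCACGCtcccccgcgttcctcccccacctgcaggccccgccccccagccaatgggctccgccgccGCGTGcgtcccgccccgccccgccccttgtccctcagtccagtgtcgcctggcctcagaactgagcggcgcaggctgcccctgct

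RefSeq windows were given for 8 of the 10 genes, 9 windows in all because Egln2 has 2 starts. Epas1 and Ndrg1 had no entry. Each of the 9 windows held at least 1 core, and 7 held ACGTG. Of 32851 promoter windows of the same length, 19.6% held ACGTG and 43.8% held either core. The Hif1a window held 3 matches, of which 2 share the palindrome CACGTG, read on both strands from 135 bases before the start, while the other lies 70 bases before the start. The Egln3 window had 1 core, 229 bases before the start. Both Adm cores lay on the opposite strand, 90 and 54 bases before the start. Egln1 held 2 cores and Bnip3 held 5, also with a palindrome. Cores were thus present in the windows of Hif1a, Egln3 and Adm as well as in that of Egln1, and a match is a description of letters and not a shown binding site.

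**Figure D1:**
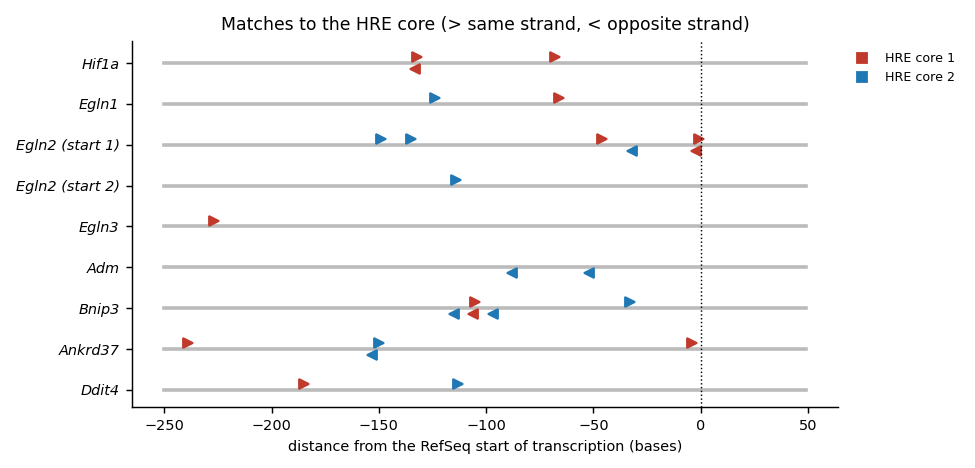
Position of HRE cores in the 9 RefSeq promoter windows of 8 genes, in bases from the start of transcription (dotted line). Red marks the core ACGTG and blue the core GCGTG, with arrowheads to the right on the strand of the gene and to the left on the opposite strand, and every window holds at least 1.

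Egln3 was the only one of the 10 genes called in MIRI against sham hearts, and its mRNA was higher in the MIRI hearts. Genes were called where the fold change was 1.5 or more with an unadjusted p no higher than 0.01 in edgeR's quasi-likelihood test, thresholds taken from the study. This 1 gene higher and 0 lower stood against 6.15% of 14644 tested genes called higher and 2.82% called lower. Another 4 of the 10 had an unadjusted p under 0.05. The share of all genes under 0.05 was not counted in any comparison, so such counts have no background here. None of the 10 passed a Benjamini-Hochberg adjusted p of 0.05 with edgeR, which only 2 of all 14644 genes did. DESeq2 called 4 on the same libraries, Hif1a, Egln3, Adm and Ndrg1, and all 4 passed its adjusted p of 0.05. Over all genes 2067 passed it with DESeq2, so the 2 tools differ over the whole transcriptome and not only in these genes. DESeq2 called 5.34% of 27898 genes higher and 2.72% lower. Without MIRI 2, edgeR called these 4 higher and Epas1 and Egln1 lower. In that fit 16.9% of 15207 genes were called higher and 13.3% lower.

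No difference between GXNI and MIRI hearts was detected in these genes. In GXNI against MIRI, 0 of the 10 genes were called and 0 had an unadjusted p under 0.05, with edgeR and with DESeq2. Over all genes edgeR called 0.0203% of 14762 and DESeq2 0.0391% of 28122. The log2 fold changes were between -0.497 and 0.06, with standard errors of 0.17 to 1.14, so changes in Adm, Ndrg1, Ankrd37 and Egln3 were poorly bounded. Without MIRI 2 and GXNI 3, Hif1a, Adm and Ndrg1 were called lower in GXNI hearts, against 3.47% of 14984 genes called lower and 1.52% higher. None of the 3 passed the adjusted threshold in that fit, where 0 of all genes did. This fit compares 2 hearts with 2.

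**Figure D2:**
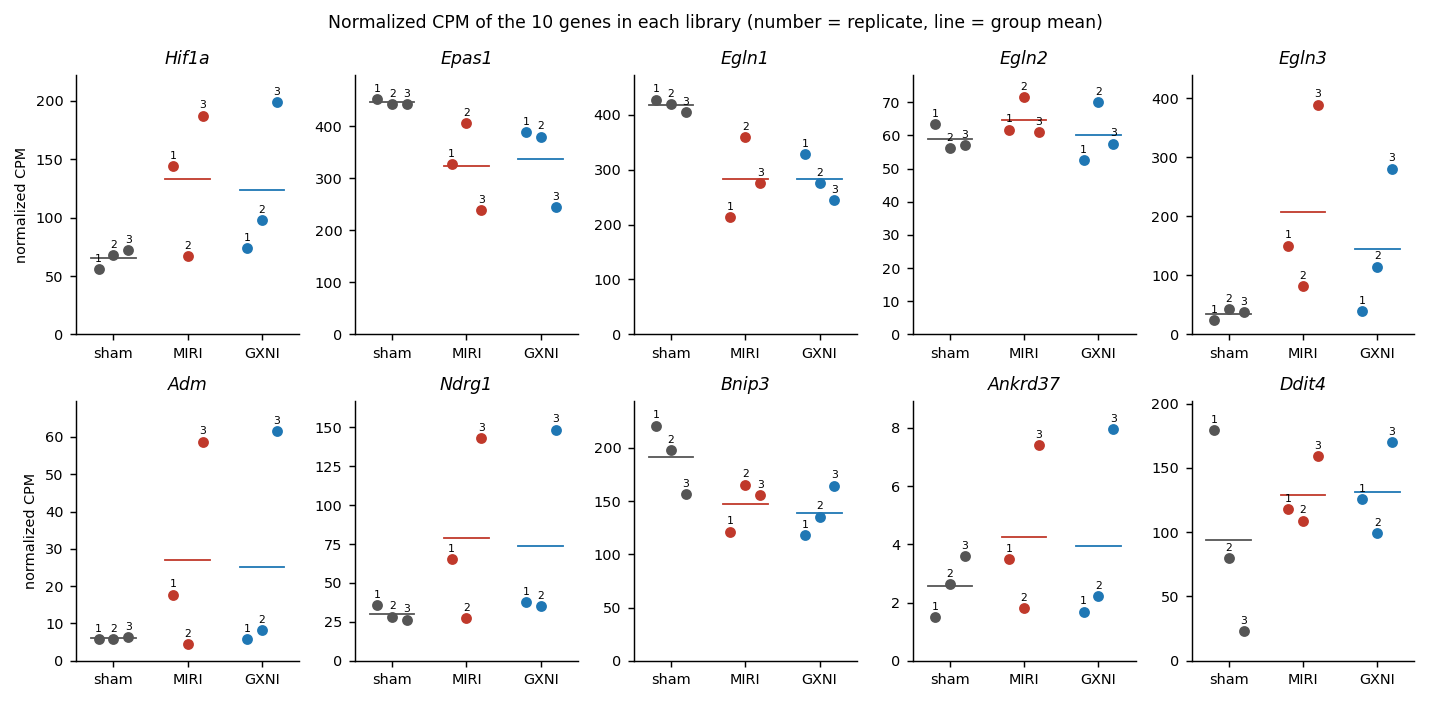
Normalized CPM (counts scaled to the library total, vertical axes starting at 0) of the 10 genes in each heart of the sham, MIRI and GXNI groups, with the replicate number beside each point and the group mean as a line. MIRI 1, MIRI 3 and GXNI 3 are the highest libraries for Hif1a, Adm and Ndrg1, and all 6 I/R hearts are below the sham hearts for Epas1 and Egln1. The share of all genes separated in this way was not counted.

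**Figure D3:**
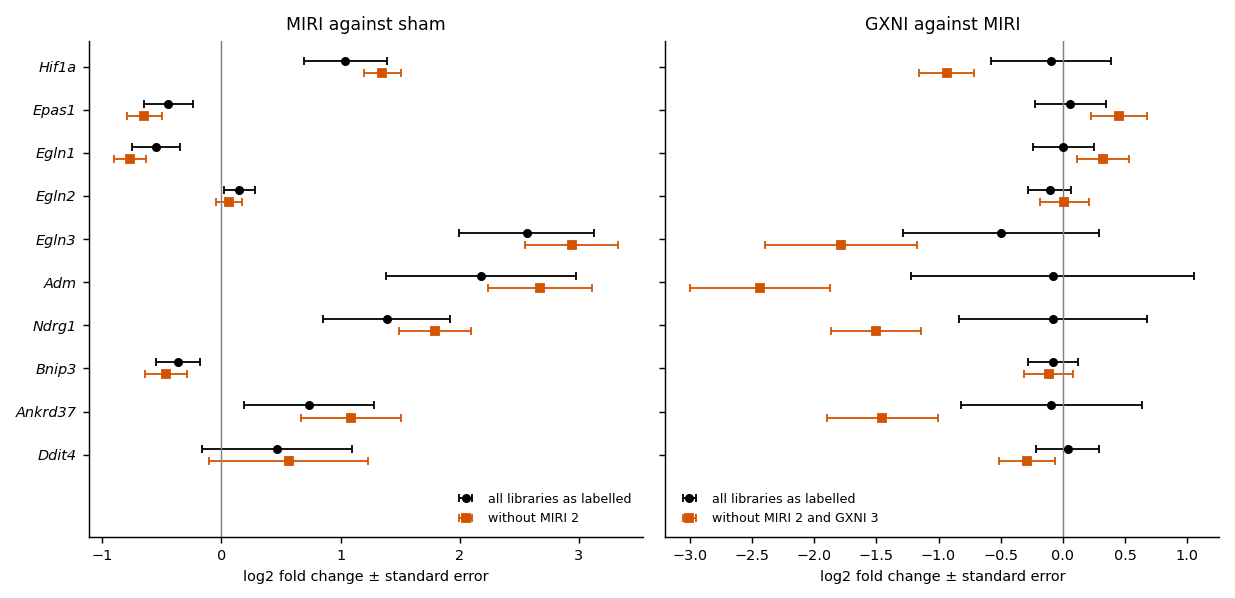
Log2 fold changes ± standard error from edgeR for MIRI against sham (left) and GXNI against MIRI (right), with all libraries as labelled (black circles) and without the libraries named in the legend (orange squares). Adm is at 2.18 and 2.67 on the left, and at -0.08 and -2.43 on the right.

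Hif1a encodes the alpha subunit that drives the acute response to low oxygen (chr12:73901375-73947530, + strand, GRCm38). Its normalized level was 55.9, 68.0 and 72.0 CPM in the sham hearts. In the MIRI hearts it was 144, 67.2 and 187 CPM, and in the GXNI hearts 73.6, 98.2 and 199 CPM. MIRI 2 lay within the sham range, and the other 5 I/R hearts lay above it. The mean was 65.3 ± 8.41 CPM in sham, 133 ± 60.9 in MIRI and 124 ± 66.4 in GXNI hearts (SD, n = 3 each). The log2 fold change of MIRI against sham was 1.04 ± 0.35 (SE), with an edgeR unadjusted p of 0.0207 and an adjusted p of 0.125. DESeq2 gave 1.04 with an unadjusted p of 0.0047. Without MIRI 2 the edgeR value was 1.35 ± 0.16 with an adjusted p of 0.000708. Against MIRI, GXNI hearts differed by -0.10 ± 0.48, and by -0.94 ± 0.22 without MIRI 2 and GXNI 3 (edgeR unadjusted p 0.00585, adjusted p 0.189). The antisense gene Gm15283 and the protein-coding Gm49321 overlap Hif1a. The strand setting of the counting is not given in the sources used here, so reads of Gm15283 cannot be told apart. Gm49321 lies on the same strand as Hif1a, so strand would not separate its reads.

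Epas1, which encodes HIF-2 alpha, abundant in endothelium, was lower in the I/R hearts (chr17:86753700-86833410, + strand). The sham hearts gave 452, 442 and 443 CPM. The MIRI hearts gave 327, 406 and 239 CPM and the GXNI hearts 389, 380 and 244 CPM. Every I/R heart was below every sham heart, with MIRI 3 and GXNI 3 lowest and MIRI 2 nearest to the sham level. How many of all tested genes separate the I/R from the sham hearts in this way was not counted. The sham spread was small (446 ± 5.29 CPM, SD, n = 3). The edgeR log2 fold change of MIRI against sham was -0.45 ± 0.20 with an unadjusted p of 0.065, which does not pass. Without MIRI 2 it was -0.65 ± 0.15 with an adjusted p of 0.0111, and this was called. For all 6 I/R hearts against sham it was -0.42 ± 0.19 (edgeR unadjusted p 0.0493). Of the 5 endothelial markers, Pecam1, Cdh5 and Emcn were highest in MIRI 3 and GXNI 3, where Epas1 was lowest. Tek (48.0 to 59.2 CPM) and Kdr (70.8 to 135 CPM) in I/R hearts did not exceed their sham maxima of 78.4 and 177 CPM. The summed level was 449 to 688 CPM in sham and 494 to 895 CPM in I/R hearts, and its part in the Epas1 level was not tested. AC096777.1 overlaps Epas1 on the same strand.

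The ratio of Hif1a to Epas1, as counts per kb of exon, was added after the values were seen and is given without a test. It was 0.117, 0.146 and 0.154 in the sham hearts. It was 0.419, 0.157 and 0.742 in the MIRI hearts and 0.179, 0.245 and 0.771 in the GXNI hearts. All 6 I/R hearts were above the sham hearts, though MIRI 2 by little. Epas1 transcripts outnumbered Hif1a transcripts per kb in all 9 hearts. Scaling between libraries does not enter this ratio.

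**Figure D4:**
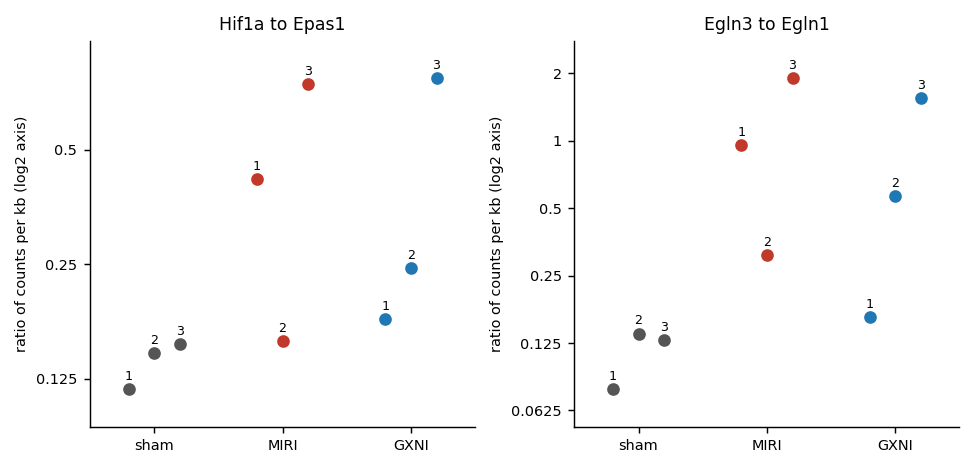
Ratio of counts per kb of exon in each heart, on a log2 axis, for Hif1a to Epas1 (left) and Egln3 to Egln1 (right), with the replicate number beside each point. The ratio of Egln3 to Egln1 runs from 0.0776 in sham 1 to 1.91 in MIRI 3.

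Among the hydroxylases, Egln3 was called higher after I/R, and Egln1 was below the sham level in every I/R heart. Egln3 (PHD3; chr12:54178981-54203860, - strand) is the hydroxylase best known as a HIF target. It measured 24.5, 42.9 and 38.4 CPM in sham hearts. It measured 151, 81.9 and 390 CPM in MIRI and 39.8, 115 and 281 CPM in GXNI hearts. All MIRI hearts, MIRI 2 included, were above the sham range, and GXNI 1 was the only I/R heart within it. MIRI against sham gave a log2 fold change of 2.56 ± 0.57, with an edgeR unadjusted p of 0.00272 and an adjusted p of 0.0776. The call was lost without sham 1 (2.35, edgeR unadjusted p 0.0135) and without sham 3 (2.62, p 0.0106). Without MIRI 2 the value was 2.94 ± 0.39 with an adjusted p of 0.00123. Without MIRI 3, the highest heart, it was 1.74 with an edgeR p of 0.0023. The mean of the 6 I/R hearts was also called higher than sham (2.32 ± 0.67, edgeR unadjusted p 0.0062, adjusted p 0.0897), against 5.52% of 15207 genes called higher. That call was lost without sham 1, sham 2, sham 3 or GXNI 3, with log2 fold changes of 2.12, 2.48, 2.39 and 2.14.

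Egln1 (PHD2; chr8:124908587-124949324, - strand), the main oxygen sensor in most tissues, had the highest level per kb of the 10 genes in sham hearts. It measured 427, 420 and 404 CPM there, 213, 359 and 276 CPM in MIRI hearts and 329, 275 and 244 CPM in GXNI hearts. No I/R heart reached the lowest sham heart, a separation that was not counted over all genes. The edgeR log2 fold change was -0.55 ± 0.20 in MIRI against sham (unadjusted p 0.0287) and -0.56 ± 0.16 for all 6 I/R hearts against sham (unadjusted p 0.00638), below the fold required. Without MIRI 2 and GXNI 3 the latter was -0.61 ± 0.15 (unadjusted p 0.00379, adjusted p 0.078) and was called, where 3.24% of 14990 genes were called lower and 6.6% higher. With all 9 libraries 2.85% were called lower. Without MIRI 2, MIRI against sham gave -0.77 ± 0.13 with an adjusted p of 0.00356.

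Egln2 (PHD1; chr7:27158658-27166802, - strand) varied little, at 63.3, 56.1 and 57.0 CPM in sham, 61.7, 71.6 and 61.0 CPM in MIRI and 52.6, 70.1 and 57.5 CPM in GXNI hearts. The groups overlapped, and the edgeR log2 fold change of MIRI against sham was 0.15 ± 0.13 (adjusted p 0.457), and 0.07 without MIRI 2. Cyp2t4 overlaps Egln2 on the other strand. The ratio of Egln3 to Egln1 per kb was 0.0776, 0.138 and 0.128 in sham hearts. In MIRI hearts the ratio was 0.956, 0.308 and 1.91, and in GXNI hearts 0.163, 0.565 and 1.55. In MIRI 3 and GXNI 3 there were thus more Egln3 than Egln1 counts per kb, while Egln1 led in the other 7 hearts. This ratio was likewise added with the values in view and has no test.

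Adm, Ndrg1 and Ankrd37, targets that respond to HIF in many cell types, were highest in MIRI 3 and GXNI 3. Adm encodes adrenomedullin, a vasodilator peptide (chr7:110627661-110629820, + strand). It measured 5.80, 5.85 and 6.37 CPM in sham hearts, 17.7, 4.53 and 58.8 CPM in MIRI hearts and 5.71, 8.23 and 61.7 CPM in GXNI hearts. MIRI 3 and GXNI 3 stood about equally far above the rest, MIRI 1 came next, and MIRI 2 was the lowest of all 9. The SD was thus near the mean in MIRI (27.0 ± 28.3 CPM) and in GXNI hearts (25.2 ± 31.6 CPM, n = 3 each). The edgeR log2 fold change of MIRI against sham was 2.18 ± 0.80 with an unadjusted p of 0.0292 and an adjusted p of 0.141. Without MIRI 2 it was 2.67 ± 0.43 with an adjusted p of 0.00273. GXNI against MIRI gave -0.08 ± 1.14, and -2.43 ± 0.56 without MIRI 2 and GXNI 3 (edgeR unadjusted p 0.00513, adjusted p 0.188). The antisense gene Gm28863 overlaps Adm.

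Ndrg1 is a stress-responsive gene induced by hypoxia (chr15:66929318-66969640, - strand). It measured 35.9, 28.3 and 26.5 CPM in sham, 65.2, 27.4 and 143 CPM in MIRI and 37.6, 34.9 and 149 CPM in GXNI hearts. MIRI 1, MIRI 3 and GXNI 3 were high, and MIRI 2 lay within the sham range. MIRI against sham gave 1.39 ± 0.53 (edgeR unadjusted p 0.0353, adjusted p 0.152), and 1.79 ± 0.30 without MIRI 2 (adjusted p 0.00322). GXNI against MIRI gave -0.08 ± 0.76, and -1.5 ± 0.36 without MIRI 2 and GXNI 3 (edgeR unadjusted p 0.0062, adjusted p 0.189). Gm17035 and Gm2895 overlap Ndrg1 on the other strand.

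Ankrd37, a small ankyrin-repeat gene (chr8:45996902-46005707, - strand), had the lowest level of the 10 genes, with 28 to 171 counts in a library. It measured 1.5, 2.63 and 3.59 CPM in sham, 3.49, 1.82 and 7.41 CPM in MIRI and 1.69, 2.23 and 7.95 CPM in GXNI hearts. MIRI 3 and GXNI 3 alone exceeded the sham range. MIRI against sham gave 0.74 ± 0.54 (edgeR adjusted p 0.392), and 1.09 ± 0.42 without MIRI 2 (adjusted p 0.0719). Ufsp2 and Lrp2bp overlap Ankrd37 on the other strand.

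The libraries high for Hif1a, Adm and Ndrg1 were those with the highest neutrophil markers, MIRI 1, MIRI 3 and GXNI 3. The part of cell content in these levels was not tested. Of the 5 atrial markers, Nppa, a natriuretic peptide gene that stressed ventricle also expresses, was highest in MIRI 3 (672 CPM) and GXNI 3 (727 CPM) and gave nearly all of their sum. Myl7, Sln and Bmp10 had 0 counts in both of these libraries. The atrial markers other than Nppa were highest in MIRI 2, at 3.47 CPM for Myl4, 1.76 for Myl7, 1.35 for Sln and 1 count for Bmp10. The 5 adipocyte markers summed to 7.35 CPM in MIRI 2 and to at most 1.49 CPM in the other libraries. The 5 mesothelial markers summed to 67.1 CPM in GXNI 1 and to at most 21.6 CPM in the others.

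Bnip3 and Ddit4 did not follow the other targets. Bnip3, a mitophagy receptor of the outer mitochondrial membrane (chr7:138890836-138909519, - strand), measured 221, 198 and 156 CPM in sham hearts. It measured 121, 165 and 156 CPM in MIRI and 118, 135 and 164 CPM in GXNI hearts. The edgeR log2 fold change was -0.37 ± 0.18 in MIRI against sham (adjusted p 0.231) and -0.42 ± 0.16 for all 6 I/R hearts against sham (unadjusted p 0.0239, adjusted p 0.124). The groups overlapped at their edges, and Bnip3 was not called without MIRI 2 either (-0.47 ± 0.18). Gm45507 and the pseudogene Gm18258 overlap it on the other strand.

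Ddit4 encodes REDD1, an inhibitor of mTORC1 that also responds to glucocorticoids and feeding (chr10:59949669-59951834, - strand). Its sham hearts spread most, at 179, 79.7 and 22.9 CPM. The MIRI hearts were at 118, 109 and 159 CPM and the GXNI hearts at 126, 99.0 and 170 CPM, all within the sham range. With such a sham spread, the log2 fold change of 0.46 ± 0.63 in MIRI against sham (edgeR adjusted p 0.641) fixes no direction. It was 0.56 without MIRI 2 and -0.0089 without sham 3.

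Against sham, GXNI hearts gave 0 calls among the 10 genes with edgeR, where 4.21% of 14695 genes were called in either direction. Of the 10 genes, 4 had an unadjusted p under 0.05, a share that was not counted over all genes. DESeq2 called 2, Egln3 and Adm, and 5.01% of 27956 genes in either direction. These comparisons share the sham hearts with those of MIRI. Egln3 was at 2.06 ± 0.66 (edgeR unadjusted p 0.017) and Egln1 at -0.55 ± 0.14 (unadjusted p 0.00687, below the fold required). Hif1a was at 0.93 (unadjusted p 0.0377) and Bnip3 at -0.45 (unadjusted p 0.049). Without GXNI 3, Hif1a was at 0.40, Adm at 0.22 and Ndrg1 at 0.27, none called, where 3.57% of 15007 genes were called. Without GXNI 1 edgeR called Hif1a (1.20) and Egln3 (2.51) higher and Egln1 (-0.67) lower, where 17.8% of 14990 genes were called.

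Per kb of exon, the order of the mean levels in sham hearts was Egln1 at 116 CPM per kb, Bnip3 at 84.6, Epas1 at 79.7, Ddit4 at 53.5, Egln2 at 21.0, Egln3 at 13.3, Hif1a at 11.1, Ndrg1 at 4.58, Adm at 3.71 and Ankrd37 at 1.67. Bnip3 and Epas1 overlapped between hearts, Ddit4 overlapped with both and with Egln2 and Egln3, and Egln3 overlapped with Hif1a.

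Of 60 other genes of the HIF pathway, 56 were tested in MIRI against sham. Of these 9 were called higher and 1 lower by edgeR, where 6.15% of 14644 tested genes were called higher and 2.82% lower. None of the 56 passed an adjusted p of 0.05, and only 2 of all 14644 genes did. Their median log2 fold change was 0.35, against 0.60 for the 10 genes and -0.00 for all tested genes. Without MIRI 3 these medians were 0.13 and 0.24. DESeq2 called 15 higher and 1 lower of 59, where it called 5.34% of 27898 genes higher and 2.72% lower. Without MIRI 2, 24 were called higher and 2 lower of 57 tested, where 16.9% of 15207 genes were called higher and 13.3% lower. Of the 57, 30 passed an adjusted p of 0.05, as did 6554 of all 15207 genes in that fit. The 9 higher calls became 3 in 1 fit of all 9 libraries, 3 without sham 1, sham 2 or sham 3, 4 without MIRI 1 and 5 without MIRI 3. Over all genes, the 900 higher calls became 340 to 535 in these fits. For all 6 I/R hearts against sham 4 were called higher and 1 lower of 57. Over all 15207 genes there, 5.52% were called higher and 2.85% lower. In GXNI against sham 3 of 56 were called higher and 0 lower, where 4.21% of 14695 genes were called in either direction.

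The subunits and cofactors held no call among 4 tested, in MIRI against sham with or without MIRI 2. Arnt was at 52.5 to 55.8 CPM in sham and 52.9 to 62.5 CPM in I/R hearts. Of 9 inhibitors and degradation factors only Siah2 was called. Siah2 is a ubiquitin ligase that targets the hydroxylases and so, unlike Vhl, is not a brake on the alpha subunits. It measured 5.43 to 5.73 CPM in sham and 8.58 to 19.4 CPM in I/R hearts. Every I/R heart was above every sham heart for Siah2, MIRI 2 included, a separation that was not counted over all genes. For Siah2, MIRI against sham gave 1.22 ± 0.23 (edgeR unadjusted p 0.0011, adjusted p 0.0662), and 1.31 without MIRI 2. Vhl was not called.

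Among the secreted factors, 2 of 7 tested were called higher in MIRI than in sham hearts, against 6.15% of all tested genes. Of these, Igfbp3, which binds insulin-like growth factors, was at 2.5 ± 0.65 (edgeR adjusted p 0.0908), and 2.93 without MIRI 2. Without MIRI 2, 4 of the 7 tested secreted factors were called higher and Stc2 lower, at -1.06. In that fit 16.9% of all tested genes were called higher and 13.3% lower.

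Of the 14 genes of glucose metabolism, the lactate exporter Slc16a3 (4.37 ± 1.06, edgeR adjusted p 0.0857) and the glucose transporter Slc2a1 (2.46 ± 0.68, adjusted p 0.0981) were called higher in MIRI against sham. Slc2a1 measured 21.6 to 22.5 CPM in sham hearts, 116, 25.0 and 223 CPM in MIRI hearts and 14.3, 54.1 and 264 CPM in GXNI hearts. Without MIRI 2, where 16.9% of all tested genes were called higher, Slc16a3 was at 4.91 and Slc2a1 at 2.94. In that fit 8 of the 14 were called higher, among them the neuronal-type transporter Slc2a3 at 1.86. In mitochondrial and redox genes the oxidoreductase Ero1l was called at 2.32 ± 0.62 (adjusted p 0.0953), and at 2.78 without MIRI 2. Without MIRI 2, 3 of these 9 were called higher, including the heme oxygenase Hmox1 at 2.86 and the kinase Pdk3 at 1.42.

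In the matrix group the lysyl oxidase homolog Loxl2 was called at 1.15 ± 0.30 (edgeR adjusted p 0.092), and at 1.31 without MIRI 2, where so were Lox at 1.53 and the collagen prolyl hydroxylase P4ha1 at 1.32. In the remaining group, transcription and signalling, Tfrc, the transferrin receptor, was called at 2.07 ± 0.39 and Ier3 at 1.77 ± 0.49 (adjusted p 0.0662 and 0.0991), and these were at 2.22 and 2.17 without MIRI 2. Vldlr, the very-low-density lipoprotein receptor, was called lower at -1.15 ± 0.26 (adjusted p 0.0777), and was at -1.45 without MIRI 2. It measured 343 to 405 CPM in sham and 112 to 317 CPM in I/R hearts, below sham in all 6. How many of all genes separate in this way was not counted. Without MIRI 2, the carbonic anhydrase Car9 was also called, at 3.12, and among the secreted factors Angptl4, a lipase inhibitor, at 2.52.

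For all 6 I/R hearts against sham, the calls included Siah2 (1.26), Slc16a3 (4.19), Loxl2 (1.12) and Vldlr (-0.99). Without MIRI 2 and GXNI 3, 5 were called higher and 1 lower, where 6.6% of 14990 genes were called higher and 3.24% lower. Hmox1 (2.23) and Stc2 (-0.94) were among these pathway calls. In GXNI against MIRI, 0 of 57 genes were called and 0 had an unadjusted p under 0.05 with edgeR, while DESeq2 also called 0 and had 1 of 59 under 0.05. Without MIRI 2 and GXNI 3, picked by their own expression, 3.47% of 14984 genes were called lower and 1.52% higher. In this fit of 2 hearts against 2, 9 of the 57 were called lower in GXNI hearts and 0 higher. Their largest falls by role were in Slc16a3 (-2.95), Ero1l (-2.39), Igfbp3 (-2.20), Pfkfb3 (-2.15), Ier3 (-1.97), Slc2a3 (-1.59), Lox (-1.27) and Bhlhe40 (-1.13), with edgeR adjusted p-values of 0.182 to 0.188.

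**Figure D5:**
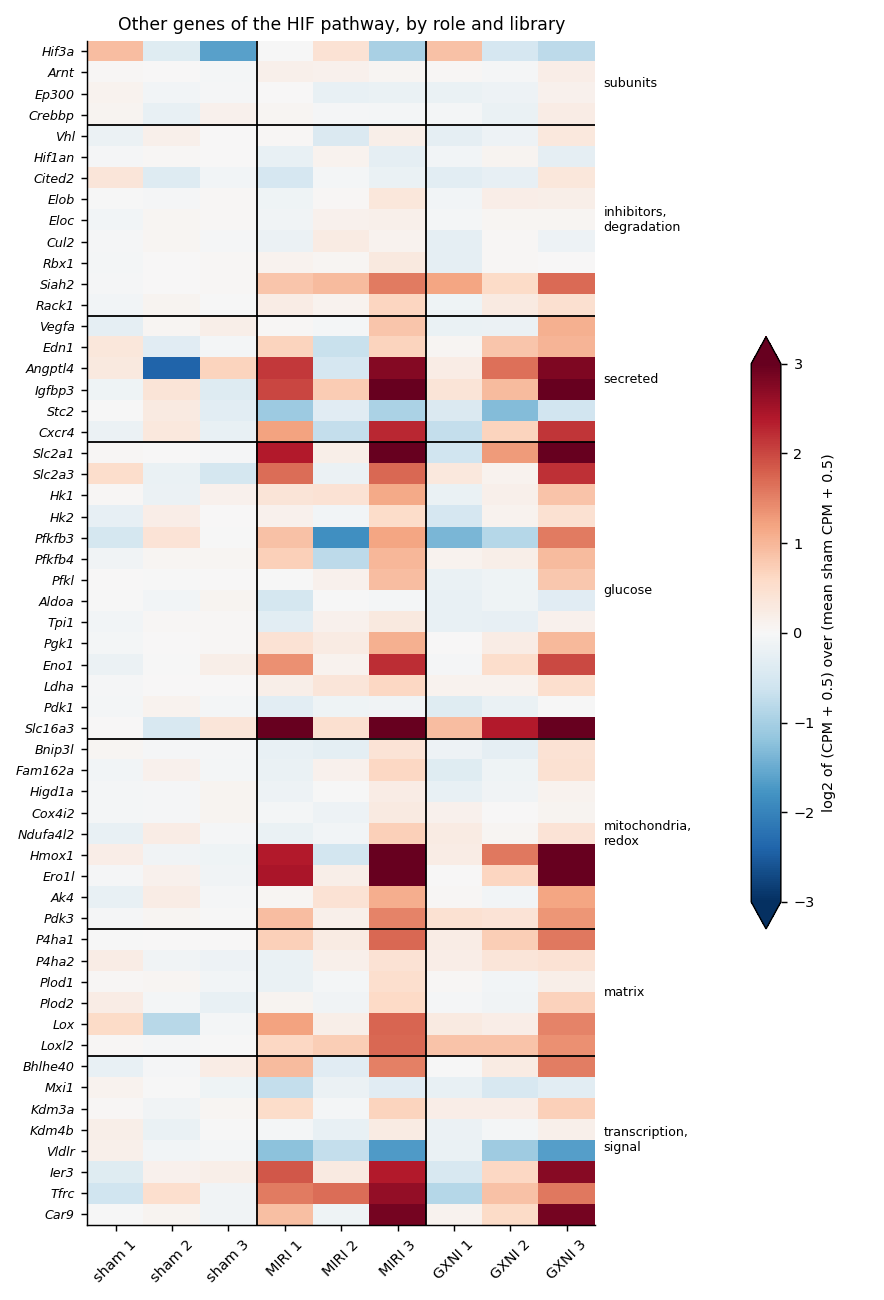
Level of 56 other HIF pathway genes in each library, as log2 of (CPM + 0.5) over (mean sham CPM + 0.5), with red higher and blue lower than sham and roles separated by lines. Slc16a3, Hmox1 and Ero1l are red in MIRI 1, MIRI 3 and GXNI 3, and the subunit Arnt stays near white in all 9 libraries.

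Across the 9 libraries, Pearson's r of log2 CPM was -0.96 between Hif1a and Epas1, 0.98 between Adm and Ndrg1, and 0.94 between Hif1a and Egln3. Egln2 stayed between -0.24 and 0.19 with the other members. Of 15207 genes, those most like Hif1a were Ecscr (0.998), H3f3b (0.997) and Acsl5 (0.994). For Epas1 they were Ttc30b (0.998), 4930452B06Rik (0.993) and Dusp28 (0.991), and for Adm they were Sap30 (0.990), Cstf2 (0.990) and Sesn2 (0.989). These are descriptions over 9 libraries, and many genes follow the same separation of libraries.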

How the data were processed

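Heart RNA from 9 mice, 3 per group, was sequenced. The authors dropped reads of low quality or with adapter or poly-N sequence and used HISAT2 (mm10, per the labels) for alignment. They deposited raw counts per gene from featureCounts of Subread. Versions, the annotation release and the strand setting are not given in the sources used here. Of 54532 identifiers, 54495 had a symbol in GENCODE M21 (GRCm38), whose coordinates are given. Totals were 17119454 to 22811295 counts, so that 3 counts equal 0.132 to 0.175 CPM. The table held 0 columns of other samples.

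All genes were fitted with edgeR 4.0.16 in R 4.3.3 (TMM, filterByExpr, quasi-likelihood F test, no covariates), on the libraries of the groups compared. Calls used a fold of 1.5 and an unadjusted p of 0.01, with Benjamini-Hochberg adjusted p-values beside them. The SE is the absolute log2 fold change over the square root of F. CPM uses TMM factors over the 9 libraries, with a prior count of 0.5 in log2 CPM. DESeq2 1.42.0, RLE factors, no filter, 1 fit of 9 libraries, a replicate block and left-out libraries were alternatives. On data simulated for MIRI against sham, edgeR recovered 200 of 200 genes changed by 2 on the log2 scale among 14743. Smaller changes were not simulated. Every simulated gene had the same fixed dispersion, and every treated library had the same change. The wide spread among the real MIRI hearts, as in Adm, was thus not reproduced, and recovery under it was not tested.

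The 10 genes and the lists were chosen with earlier results of these data known. Named were all 10 members, in each role of the pathway list up to 3 called genes with the largest change per direction in MIRI or all I/R against sham, or without MIRI 2 and GXNI 3 also in GXNI against MIRI, and the 3 genes most correlated with Hif1a, Epas1 and Adm. Arnt, Vhl, the endothelial and atrial markers named and the library values of pathway genes were added after their values were seen. So were the adipocyte and mesothelial sums. Promoters were taken from RefSeq. No 2 libraries agreed within sampling noise. 1 gene of the pathway list is counted in the list but not reported here by name.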

Additional observations from a re-analysis of the deposited data

How the results depend on the processing

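The number of the 10 genes called in MIRI against sham was 1, and became 4 with DESeq2, 4 without the filter on low counts and 0 by an adjusted p of at most 0.05, with 0 to 6 over single left-out hearts. Over all genes, 2 of 14644 passed the adjusted threshold with edgeR and 2067 of 27898 with DESeq2. The 6 came without MIRI 2, where 16.9% of all tested genes were called higher and 13.3% lower. In GXNI against sham the number was 0, and became 2 with DESeq2 and 1 without the filter, with 0 to 3 over left-out hearts. The 3 came without GXNI 1, where 17.8% of all tested genes were called. In all I/R against sham the number was 1, and became 2 with DESeq2 and 0 by an adjusted p, with 0 to 3 over left-out hearts. Of all 15207 genes there, 9 passed the adjusted threshold with edgeR. The 3 came without MIRI 2, where 1466 of 15156 genes were called higher and 722 lower. Leaving out MIRI 2 and GXNI 3 together gave 2 there and 3 in GXNI against MIRI, where all other settings gave 0. RLE factors and 1 fit of all 9 libraries changed no count. The cause of these changes was not tested, and fits with a heart left out also hold fewer hearts.

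With the replicate number as a block, 1 gene, Egln3, was called in GXNI against sham (log2 fold change 1.67), and no other call changed. Same-numbered hearts deviated together with correlations of -0.09, 0.05 and 0.11 between MIRI and sham, 0.11, -0.08 and 0.12 between GXNI and sham, and -0.44, 0.13 and 0.70 between GXNI and MIRI, so the numbers were not taken to pair the hearts.

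Uncalled changes turned direction as follows. In GXNI against MIRI, Egln1 was 0.0047 with all libraries, -0.0071 with DESeq2 and -0.0035 in 1 fit of 9. Over left-out hearts there, MIRI 2 and GXNI 3 together included, Hif1a ran from -0.94 to 0.21, Epas1 from -0.13 to 0.45, Egln1 from -0.16 to 0.32, Egln2 from -0.23 to 0.012, Egln3 from -1.78 to 0.31, Adm from -2.43 to 1.16, Ndrg1 from -1.50 to 0.66, Bnip3 from -0.22 to 0.022, Ankrd37 from -1.45 to 0.55 and Ddit4 from -0.29 to 0.21. Against sham, Ddit4 in MIRI ran from -0.0089 to 1.33, Egln2 in GXNI from -0.076 to 0.13 and Ankrd37 in GXNI from -0.39 to 0.99. Ankrd37 had the fewest counts of the 10 genes, 28 to 171 per library.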
